A study of Homo sapiens with 89 samples.

Results

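Collagen has to be folded, trimmed and crosslinked before it becomes matrix. Genes for these steps and for matrix glycoproteins, 10 in all, were followed through 2 human neuroblastoma lines. They were taken by symbol from the 57905 genes of the RNA-seq count tables, and all 10 were found: SERPINH1, P4HA1, BMP1, PCOLCE, LOX, LOXL2, SPARC, FN1, FBN1 and MFAP4. The study profiled polyadenylated RNA to ask what the nuclear RNA exosome, and the ability of the transcription factor MYCN to bind RNA, do to the transcriptome. In IMR-32, 3 libraries came from cells whose shRNA against EXOSC10, a catalytic subunit of that exosome, was switched on with 1 µg/ml doxycycline, and 3 control libraries came from cells without doxycycline. The count columns of these controls name the solvent, ethanol (EtOH). In SHEP, 3 libraries were labelled MYCN WT (wild type MYCN switched on with 1 µg/ml doxycycline), 3 MYCN 3A (a triple mutant described as deficient in RNA binding, switched on in the same way) and 3 no MYCN, without doxycycline. Against the groups without doxycycline, the drug therefore cannot be told apart from the shRNA or the MYCN forms, whereas MYCN WT and MYCN 3A libraries both had it. The labels do not say whether libraries came from separate cultures, so every p below measures the spread between these libraries, which may be technical.

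Fibrillar collagen is made as procollagen in the endoplasmic reticulum, where prolyl 4-hydroxylase, with P4HA1 as a catalytic subunit, hydroxylates prolines and the chaperone HSP47, the product of SERPINH1, binds the triple helix. Outside the cell BMP1 cuts off the C-propeptide, helped by PCOLCE, which lets fibrils form, and the lysyl oxidases LOX and LOXL2 oxidise lysines so that chains crosslink. SPARC is a collagen-binding glycoprotein, FN1 encodes fibronectin, on which cells assemble other matrix, FBN1 encodes fibrillin-1, the core of microfibrils, and MFAP4 encodes a glycoprotein that associates with microfibrils. In neuroblastoma, matrix genes are known as part of the mesenchymal cell state, whereas the adrenergic state carries the sympathetic neuron program.

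IMR-32 libraries held 16394148 to 26193478 counts and SHEP libraries 11638859 to 15353505. The summed level of 11 adrenergic markers was 2200 to 3882 CPM (counts scaled to the library size within a line's table) in IMR-32, against 122 to 150 CPM in SHEP. In each SHEP group 4 or 5 of the 11 averaged at least 1 CPM, led by HAND2 at 60.0 to 71.5 CPM. The enzymes TH and DBH had no count in any SHEP library. The summed level of 12 mesenchymal markers was 359 to 414 CPM in IMR-32, against 5112 to 7040 CPM in SHEP. Summed leukocyte, epithelial and endothelial markers reached at most 1.37 CPM in any library, and Schwann cell markers at most 22.7 CPM in IMR-32 and 2.60 CPM in SHEP. EXOSC10 had 49.0, 46.6 and 46.1 CPM with shEXOSC10, against 74.6, 63.9 and 67.0 CPM in control (log2 fold change -0.54, SE 0.08). MYCN had 0 to 10 counts in each of the 9 SHEP libraries, those labelled MYCN WT and MYCN 3A included, so its row does not check the SHEP labels, and every SHEP result rests on them. Markers are bulk values: fewer cells of a type and less RNA per cell cannot be told apart.

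The gene models of the files, in hg19, place SERPINH1 on chromosome 11 (75273101 to 75283828), P4HA1 on chromosome 10 (74766975 to 74856732) and PCOLCE on chromosome 7 (100199800 to 100205798). LOX (121398890 to 121413980) and SPARC (151040657 to 151066726) lie on chromosome 5, FN1 on chromosome 2 (216225163 to 216300895), FBN1 on chromosome 15 (48700503 to 48938046) and MFAP4 on chromosome 17 (19286755 to 19290553). Their summed exon lengths differ widely: FN1 (17315 bases) and FBN1 (16057 bases) are the longest and MFAP4 (2152 bases) is the shortest. LOXL2 shares 120 exon bases on its own strand with ENTPD4, which averaged 3375 counts in IMR-32, where LOXL2 averaged 339, so LOXL2 levels in IMR-32 may hold reads of that neighbour. PCOLCE shares 585 exon bases with PCOLCE-AS1 on the opposite strand, which averaged 116 counts in IMR-32 where PCOLCE averaged 8577, and whether the IMR-32 counts used strand is not given in the sources used here.

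RefSeq promoter windows (GRCh38.p14, 250 bases before and 50 after a gene start) were matched for 7 of the 10 genes, with 10 starts in all. The 250 bases before 5 of those starts are shown, so that folding (SERPINH1, P4HA1), propeptide removal (PCOLCE), crosslinking (LOX) and the glycoproteins (SPARC) are each represented. They are PCOLCE (chr7:100602113-100602362, plus strand), LOX (chr5:122078260-122078509, minus strand, the most upstream of 3 starts), SPARC (chr5:151686916-151687165, minus strand), SERPINH1 (chr11:75562003-75562252, plus strand, the upstream of 2 starts) and P4HA1 (chr10:73096867-73097116, minus strand). Each reads 5′ to 3′ toward the start, and capitals mark the letters ACGTG or GCGTG (the core of the hypoxia response element), GAANNTTC (a pair of inverted heat shock units) and TATAAA, on either strand.
PCOLCE: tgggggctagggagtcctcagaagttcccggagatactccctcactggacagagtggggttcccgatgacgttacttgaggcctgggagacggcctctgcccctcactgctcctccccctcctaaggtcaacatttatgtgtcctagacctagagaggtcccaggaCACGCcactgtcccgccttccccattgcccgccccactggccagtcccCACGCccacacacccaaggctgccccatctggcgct
LOX: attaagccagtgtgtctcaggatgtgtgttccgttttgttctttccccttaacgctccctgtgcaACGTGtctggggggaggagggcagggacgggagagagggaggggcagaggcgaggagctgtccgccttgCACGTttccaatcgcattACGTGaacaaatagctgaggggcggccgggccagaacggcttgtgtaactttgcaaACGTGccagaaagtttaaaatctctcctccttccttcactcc
SPARC: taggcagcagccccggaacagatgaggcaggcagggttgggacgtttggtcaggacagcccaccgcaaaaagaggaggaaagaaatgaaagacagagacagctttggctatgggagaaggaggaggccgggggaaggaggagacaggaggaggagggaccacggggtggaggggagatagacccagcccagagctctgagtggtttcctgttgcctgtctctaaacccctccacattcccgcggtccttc
SERPINH1: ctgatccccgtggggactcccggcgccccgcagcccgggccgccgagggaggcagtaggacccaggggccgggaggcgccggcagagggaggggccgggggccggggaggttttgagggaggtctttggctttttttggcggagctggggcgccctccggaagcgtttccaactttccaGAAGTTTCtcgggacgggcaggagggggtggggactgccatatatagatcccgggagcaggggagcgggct
P4HA1: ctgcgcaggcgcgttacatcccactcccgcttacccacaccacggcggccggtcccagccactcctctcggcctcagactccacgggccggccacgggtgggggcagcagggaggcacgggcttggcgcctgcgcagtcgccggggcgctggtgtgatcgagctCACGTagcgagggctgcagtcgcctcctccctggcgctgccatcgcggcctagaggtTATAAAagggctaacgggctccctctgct

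Letters of the hypoxia core stood 4 times before the LOX start shown, at 185, 116, 98 and 42 bases upstream, and in at least 1 window of 5 of the 7 genes. Windows of neighbouring starts of LOX and of SERPINH1 overlap and share matches, so the 8 of 10 windows with the letters are not separate, and 48.4% of all 35116 RefSeq promoter windows hold them. The heat shock letters stood in 1 window, that of SERPINH1, 71 bases before the start (6.8% of all windows), and TATAAA in 1, that of P4HA1, 29 bases before the start (11.5% of all windows). CACGTG, the E-box that MYC family proteins bind, contains the hypoxia letters ACGTG and stood in 0 of the 10 windows (7.3% of all windows). GGGCGG, the GC box, stood in 4 of the 10 (45.0% of all windows), 6 times before FN1. A match is a description of letters, and its absence says only that those letters are not in the window.

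Levels were first set side by side across groups as RPKM, counts per kilobase of exon scaled to the library size over all 15 libraries. Among the 10 genes, SPARC was the highest in each SHEP group. It alone made up 60.0% of their summed level in no MYCN, 44.2% in MYCN WT and 56.0% in MYCN 3A libraries. Its share was 24.0% in shEXOSC10 libraries and 24.0% in control. In IMR-32 the highest of the 10 was MFAP4 in control libraries (154 RPKM on average) and PCOLCE with shEXOSC10 (161 RPKM). The sum over the 10 genes was 478 ± 5.16 RPKM with shEXOSC10 and 426 ± 16.2 RPKM in control, and in SHEP 419 ± 17.0 RPKM with MYCN WT, 434 ± 17.9 RPKM with MYCN 3A and 555 ± 18.8 RPKM with no MYCN (SD, n = 3 libraries each).

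**Figure D1:**
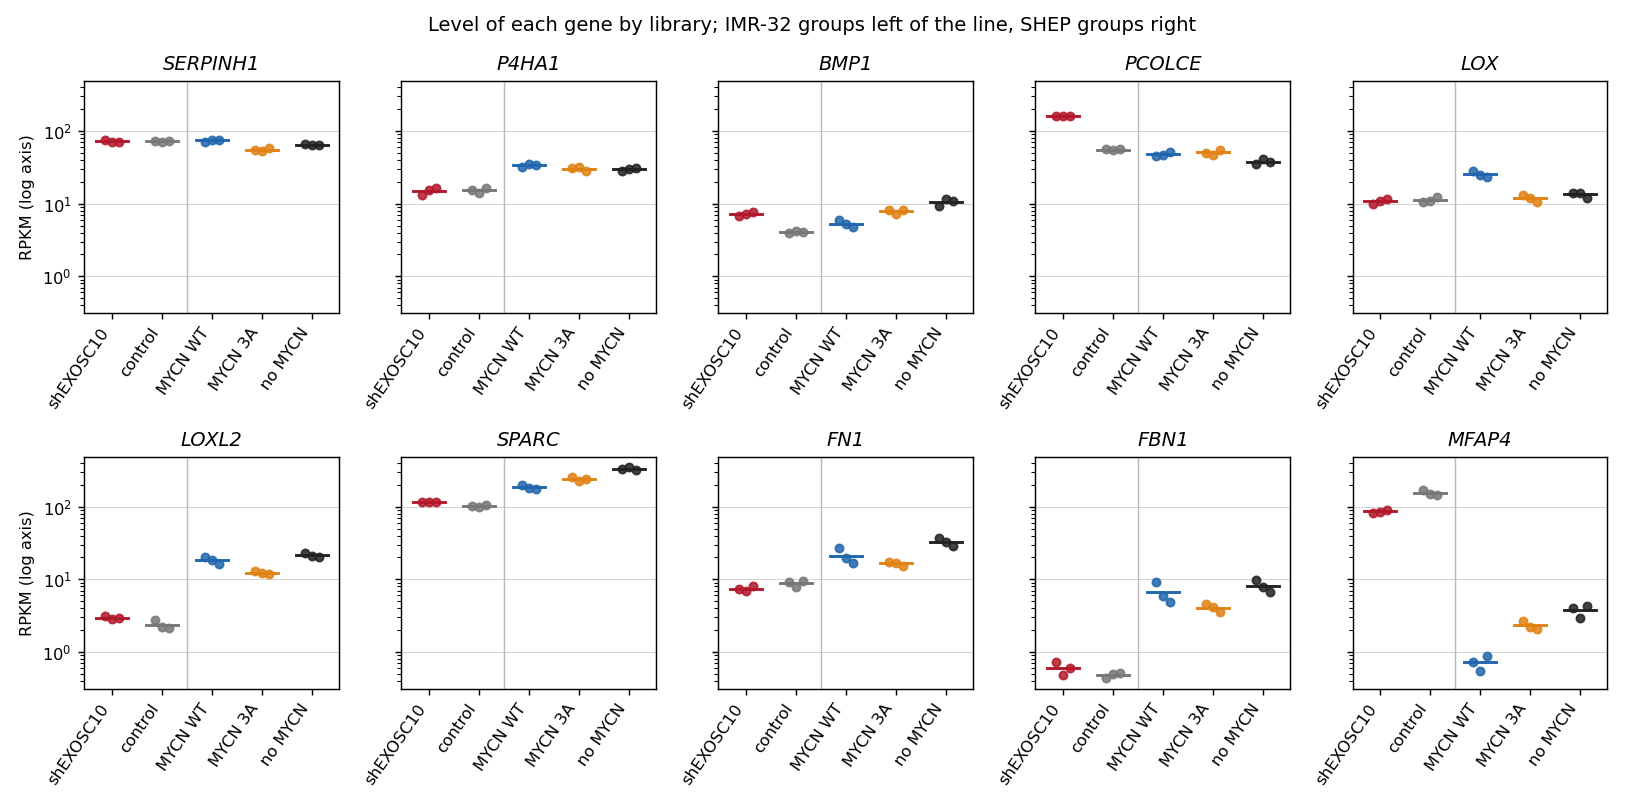
RPKM on a log axis for each of the 10 genes in the 15 libraries (points, 3 a group; line, group mean), with the IMR-32 groups left of the grey line and the SHEP groups right of it. MFAP4 spans from 154 RPKM in control to 0.720 RPKM in MYCN WT libraries, whereas SERPINH1 stays between 55.2 and 74.3 RPKM in group means.

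The genes of the endoplasmic reticulum had the flattest profile. SERPINH1 averaged 74.3 RPKM in MYCN WT, 71.9 in shEXOSC10, 71.9 in control, 64.8 in no MYCN and 55.2 in MYCN 3A libraries, and the ranges of the first 3 groups in this order overlapped their neighbours. P4HA1 averaged 33.6 RPKM in MYCN WT, 30.1 in MYCN 3A and 29.6 in no MYCN libraries, with overlap of the last pair, above 15.3 in control and 14.9 in shEXOSC10 libraries, which overlapped too. Both genes were thus well expressed everywhere. Of the propeptide pair, BMP1 ran from 10.7 RPKM in no MYCN through 7.83 in MYCN 3A, 7.17 in shEXOSC10 and 5.29 in MYCN WT to 4.04 in control libraries, with overlap of MYCN 3A and shEXOSC10 alone. PCOLCE ran from 161 RPKM in shEXOSC10 through 55.4 in control, 50.6 in MYCN 3A and 47.8 in MYCN WT to 37.9 in no MYCN libraries, with overlap of MYCN 3A and MYCN WT alone. The RNA of the proteinase was therefore lower in RPKM than that of its enhancer in every group, and the proteins were not measured here.

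LOX stood out in MYCN WT libraries at 25.6 RPKM, whereas no MYCN (13.4), MYCN 3A (11.8), control (11.3) and shEXOSC10 (10.8 RPKM) each overlapped the next. LOXL2 ran from 21.3 RPKM in no MYCN through 18.3 in MYCN WT, which overlapped it, to 12.3 in MYCN 3A, 2.97 in shEXOSC10 and 2.37 in control libraries. The crosslinking enzymes thus ordered the groups differently. SPARC separated all 5 groups without overlap, at 333 RPKM in no MYCN, 243 in MYCN 3A, 185 in MYCN WT, 115 in shEXOSC10 and 102 in control libraries. FN1 averaged 32.7 RPKM in no MYCN, 21.3 in MYCN WT and 16.6 in MYCN 3A libraries, which overlapped those of MYCN WT, and 8.84 in control and 7.41 in shEXOSC10 libraries, which overlapped each other. FBN1 averaged 8.16 RPKM in no MYCN, 6.67 in MYCN WT and 4.07 in MYCN 3A libraries, with overlap of the first pair, and 0.608 in shEXOSC10 and 0.487 in control libraries, with overlap. MFAP4 had the opposite line preference, with 154 RPKM in control and 85.8 in shEXOSC10 libraries, and 3.78 in no MYCN, 2.33 in MYCN 3A and 0.720 in MYCN WT libraries, without overlap at any step.

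With EXOSC10 depleted in IMR-32, both propeptide genes rose, PCOLCE 2.93-fold and BMP1 1.78-fold. The microfibril gene MFAP4 fell to 0.560 of its control level, and fibronectin fell slightly. The chaperone SERPINH1, P4HA1 and LOX were not called, with differences near 0. Of the 10 genes, all tested, 4 were higher and 2 lower at a Benjamini-Hochberg adjusted p under 0.05 in the quasi-likelihood test of edgeR over 17103 genes, where 27.1% of all genes were called (13.5% higher, 13.7% lower). A called change of at least 2-fold was met by 1 of the 10, PCOLCE, against 3.46% of all genes. Ranges did not overlap for 6 of the 10, against 38.4% of all genes, and the median log2 fold change was 0.09, against 0.00 over all genes.

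PCOLCE had 609, 619 and 601 CPM with shEXOSC10, against 207, 208 and 208.5 CPM in control. The groups lie far apart, and replicates within each barely differ. The log2 fold change was 1.55 (SE 0.04, edgeR adjusted p = 1.74e-41), with only 1.65% of tested genes moving as far. BMP1 had 54.2, 57.9 and 59.7 CPM with shEXOSC10, against 31.2, 33.3 and 31.8 CPM in control. All depleted libraries were above all controls, with a log2 fold change of 0.84 (SE 0.08, edgeR adjusted p = 2.19e-13).

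MFAP4 had 190, 197 and 205 CPM with shEXOSC10, against 386, 342 and 331 CPM in control. Every depleted library was below every control, with a log2 fold change of -0.84 (SE 0.05, edgeR adjusted p = 2.41e-23). FN1 had 136, 129 and 146 CPM with shEXOSC10, against 166, 148 and 174 CPM in control. The ranges nearly touch, and the log2 fold change was -0.24 (SE 0.06, edgeR adjusted p = 6.15e-04). SPARC had 601, 598 and 581 CPM with shEXOSC10, against 524, 508 and 546 CPM in control, which is higher in all depleted libraries by a small margin (log2 fold change 0.17, SE 0.04, edgeR adjusted p = 8.09e-04).

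The second lysyl oxidase, LOXL2, had 19.2, 17.7 and 17.4 CPM with shEXOSC10, against 16.7, 13.6 and 12.8 CPM in control. The lowest depleted library was just above the highest control, and the log2 fold change was 0.33 (SE 0.13, edgeR adjusted p = 0.0383). This call was lost in DESeq2 (adjusted p = 0.0779), without a filter on low counts (0.0571) and without any of 5 of the 6 libraries in turn (0.0645 to 0.187). The other 4 genes had overlapping groups: SERPINH1 changed by 0.01 (95% interval -0.08 to 0.10), P4HA1 by -0.03 (-0.19 to 0.13), LOX by -0.06 (-0.20 to 0.09) and FBN1 by 0.33 (0.01 to 0.65, edgeR adjusted p = 0.129) on the log2 scale.

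**Figure D2:**
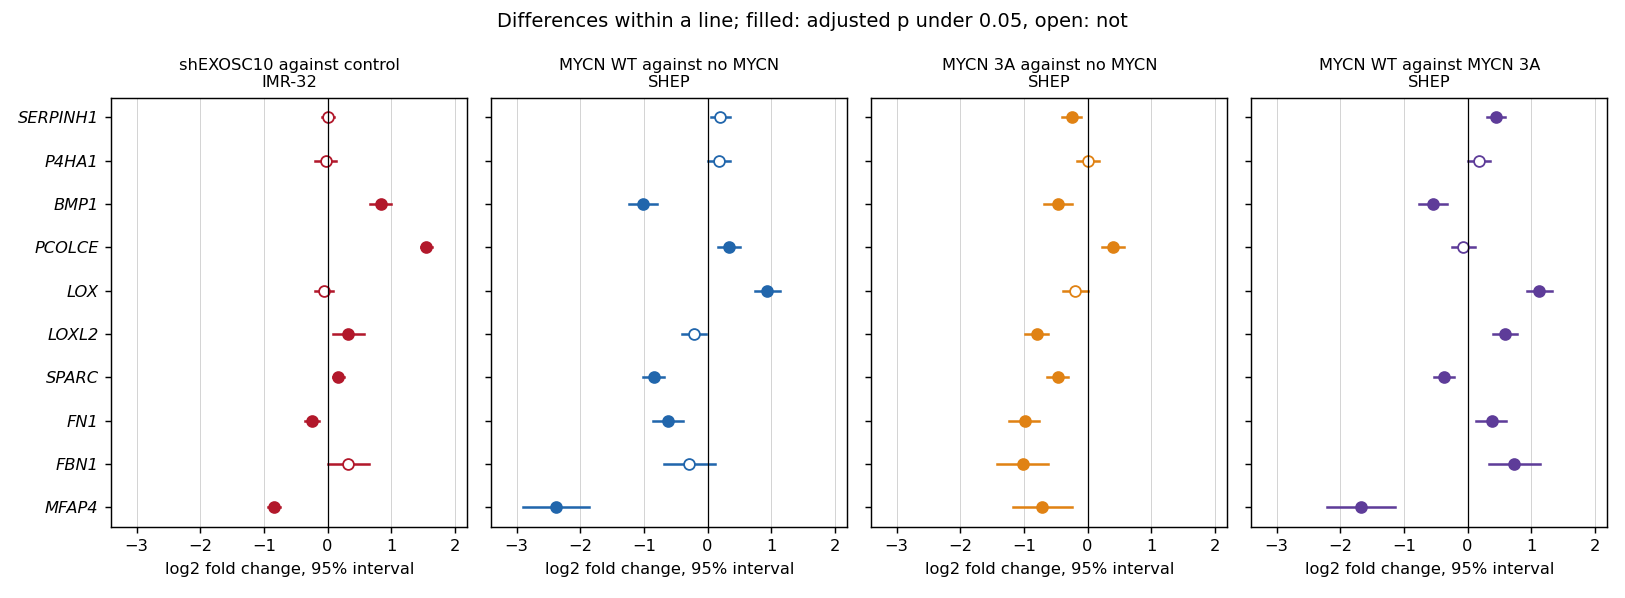
Log2 fold change (point) with its 95% interval (line) of each of the 10 genes in the 4 comparisons within a line; filled points passed edgeR's adjusted p of 0.05 and open points did not. PCOLCE at 1.55 with shEXOSC10 and MFAP4 at -2.38 with MYCN WT are the extremes.

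In IMR-32, where 27.1% of all genes were called, other matrix lists were counted in the same way. Of 19 tested endoplasmic reticulum enzymes and chaperones for collagen beyond the 10 genes, 8 were higher and 1 lower (median 0.13), among them the lysyl hydroxylase PLOD1 at 142 ± 7.03 CPM with shEXOSC10 and 98.7 ± 1.89 CPM in control, and P4HA2, the second catalytic prolyl hydroxylase subunit, at 45.7 ± 4.31 and 33.9 ± 1.51 CPM in the same order (SD, n = 3 each). Of 7 fibrillar collagen chains, 4 were higher and 1 lower (median 0.24): COL5A2 reached 33.0 ± 2.62 CPM with shEXOSC10, against 1.71 ± 0.464 CPM in control (log2 fold change 4.27), and COL1A1 313 ± 17.2 CPM, against 199 ± 12.7 CPM (0.66). Among 7 other propeptide proteinases and lysyl oxidases, 4 were higher and 2 lower (median 0.34). LOXL4 rose by 0.85, and LOXL1 and the procollagen N-proteinase ADAMTS14 fell by 0.51 and 0.85 on the log2 scale.

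Elastic fibre and matrix glycoprotein genes were higher in 11 and lower in 3 of 23 cases (median 0.34). LTBP3, which binds latent TGF-beta, rose by 0.80, and tenascin TNC fell by 1.43 on the log2 scale. Small leucine-rich proteoglycans were higher in 2 and lower in 0 of 3 (median 0.96). Metalloproteinases and their inhibitors were higher in 3 and lower in 2 of 9 (median -0.02), with the gelatinase MMP2 at 125 ± 8.84 CPM with shEXOSC10 and 39.2 ± 3.83 CPM in control (log2 fold change 1.67). Hypoxia-inducible genes were higher in 3 and lower in 4 of 15 (median -0.06) and heat shock factor target chaperones higher in 1 and lower in 3 of 9 (median -0.10). The summed adrenergic markers stood at 2200 to 2276 CPM with shEXOSC10, against 3590 to 3882 CPM in control, and mitochondrial transcripts at 7.90 to 8.22% of counts, against 6.70 to 7.49%. Summed mesenchymal markers stood at 404 to 414 CPM with shEXOSC10, against 359 to 363 CPM in control. VIM, the highest, averaged 336 CPM with shEXOSC10 and 243 CPM in control, and the remaining markers summed to less with shEXOSC10 than in control. Of the 12 markers, 5 averaged at least 1 CPM with shEXOSC10 and 6 in control. MEOX2 had no count in either group, and PRRX1 had none with shEXOSC10. MYCN averaged 598 ± 5.47 CPM with shEXOSC10 and 1096 ± 15.2 CPM in control (SD over 3 libraries), and was lower by edgeR's test (log2 fold change -0.87, SE 0.04, adjusted p = 7.54e-30). The part of these in the results above was not tested.

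**Figure D3:**
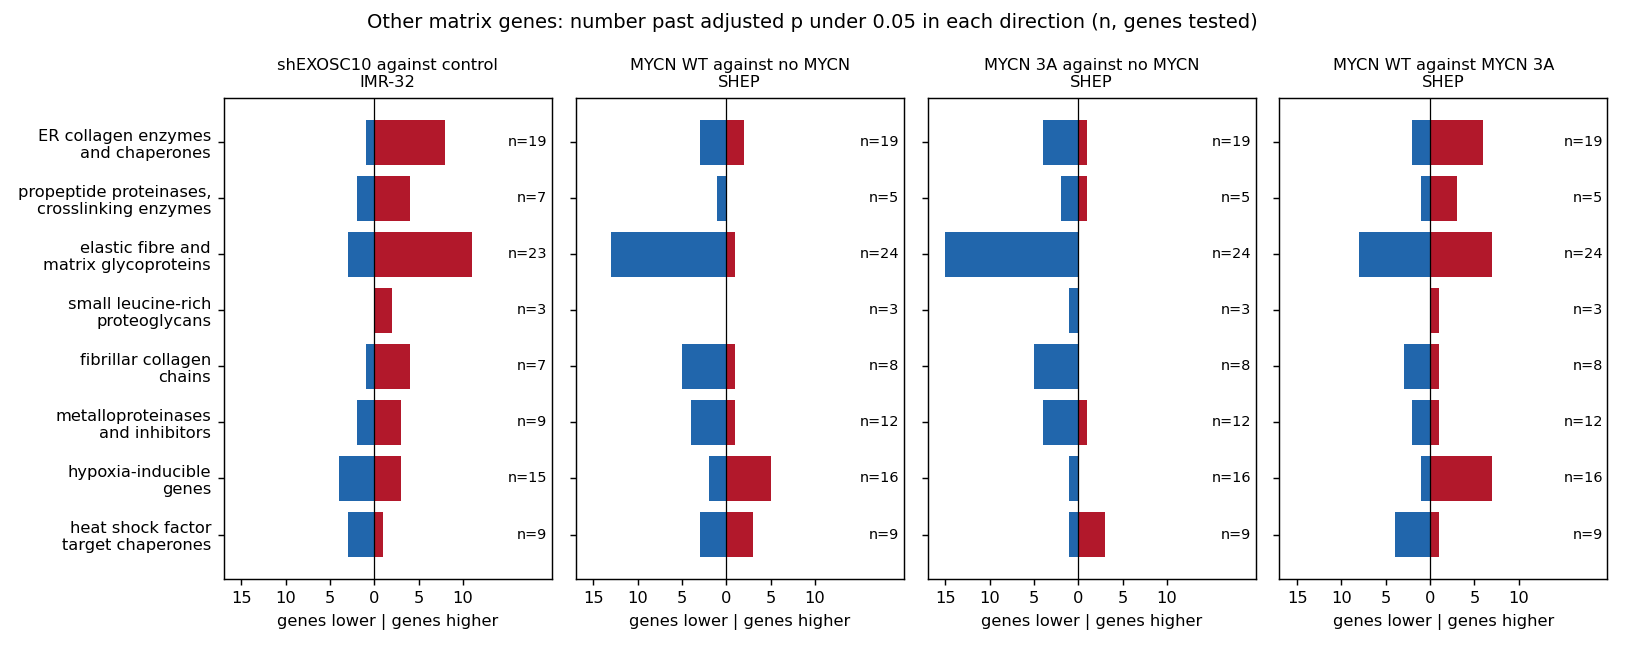
Number of genes called higher (red, right) and lower (blue, left) in 8 lists of other matrix, hypoxia and heat shock genes, with the number tested, for the 4 comparisons within a line. Elastic fibre and matrix glycoproteins were higher in 11 of 23 with shEXOSC10 and lower in 13 and 15 of 24 with MYCN WT and MYCN 3A.

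In SHEP libraries labelled MYCN WT, 3 of the 4 matrix glycoproteins and the propeptide proteinase were lower than in no MYCN libraries, while 1 crosslinking enzyme was higher. MFAP4 fell 5.24-fold, BMP1 2.01-fold, SPARC 1.79-fold and FN1 1.53-fold, and LOX rose 1.92-fold. PCOLCE rose 1.26-fold, so the RNAs of the proteinase and its enhancer moved in opposite directions. Of the 10 genes, 2 were called higher and 4 lower in edgeR's test over 14923 genes, against 22.2% of all genes called (10.9% higher, 11.3% lower), and 2 reached 2-fold, against 4.25% of all genes. Ranges did not overlap for 8 of the 10, against 37.5% of all genes, and the median log2 fold change was -0.25, against 0.00 over all genes.

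LOX had 148, 133 and 123 CPM in MYCN WT libraries, against 73.4, 74.5 and 62.9 CPM in no MYCN libraries. All MYCN WT values lie well above, with a log2 fold change of 0.94 (SE 0.10, edgeR adjusted p = 5.16e-07). BMP1 had 43.1, 37.3 and 33.8 CPM in MYCN WT libraries, against 67.2, 84.5 and 78.3 CPM in no MYCN libraries. The groups do not overlap, and the log2 fold change was -1.01 (SE 0.11, edgeR adjusted p = 7.56e-07). PCOLCE had 152, 161 and 175 CPM in MYCN WT libraries, against 119, 141 and 126 CPM in no MYCN libraries, a narrow separation (log2 fold change 0.34, SE 0.09, edgeR adjusted p = 0.00734) that was not called without no MYCN replicate 1 (0.054).

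SPARC had 927, 851 and 808 CPM in MYCN WT libraries, against 1525, 1616 and 1498 CPM in no MYCN libraries. The most abundant of the 10 genes in SHEP was thus lower in every MYCN WT library (log2 fold change -0.84, SE 0.08, edgeR adjusted p = 1.49e-07). FN1 had 449, 332 and 282 CPM in MYCN WT libraries, against 607, 543 and 481 CPM in no MYCN libraries. The ranges do not overlap but spread widely, with a log2 fold change of -0.62 (SE 0.12, edgeR adjusted p = 6.25e-04). MFAP4 had 1.49, 1.14 and 1.83 CPM in MYCN WT libraries, from 16 to 26 counts, against 8.42, 6.11 and 8.92 CPM in no MYCN libraries, from 82 to 136 counts. Low as these counts are, the groups are far apart (log2 fold change -2.38, SE 0.26, edgeR adjusted p = 7.18e-07).

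SERPINH1 had 336, 359 and 358 CPM in MYCN WT libraries, against 309, 302 and 306 CPM in no MYCN libraries. The groups do not overlap, yet the log2 fold change of 0.20 (95% interval 0.05 to 0.35) was not called (edgeR adjusted p = 0.0611). It was called in DESeq2 (0.0147) and in 1 of the 6 edgeR fits that left out a library (0.0226). P4HA1 changed by 0.18 (0.01 to 0.36, edgeR adjusted p = 0.141) without overlap. LOXL2 changed by -0.21 (-0.40 to -0.03) and FBN1 by -0.29 (-0.68 to 0.11) with overlapping groups, and both were called without MYCN WT replicate 1 (LOXL2 -0.31, edgeR adjusted p = 0.0198, and FBN1 -0.58, edgeR adjusted p = 0.00146). In that library, 955 well expressed genes with exon models of at least 10000 bases stood a median of 0.17 above their group mean on the log2 scale, and 1177 genes under 2000 bases stood at -0.16. In MYCN WT replicate 3 the same medians were -0.14 and 0.13.

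**Figure D4:**
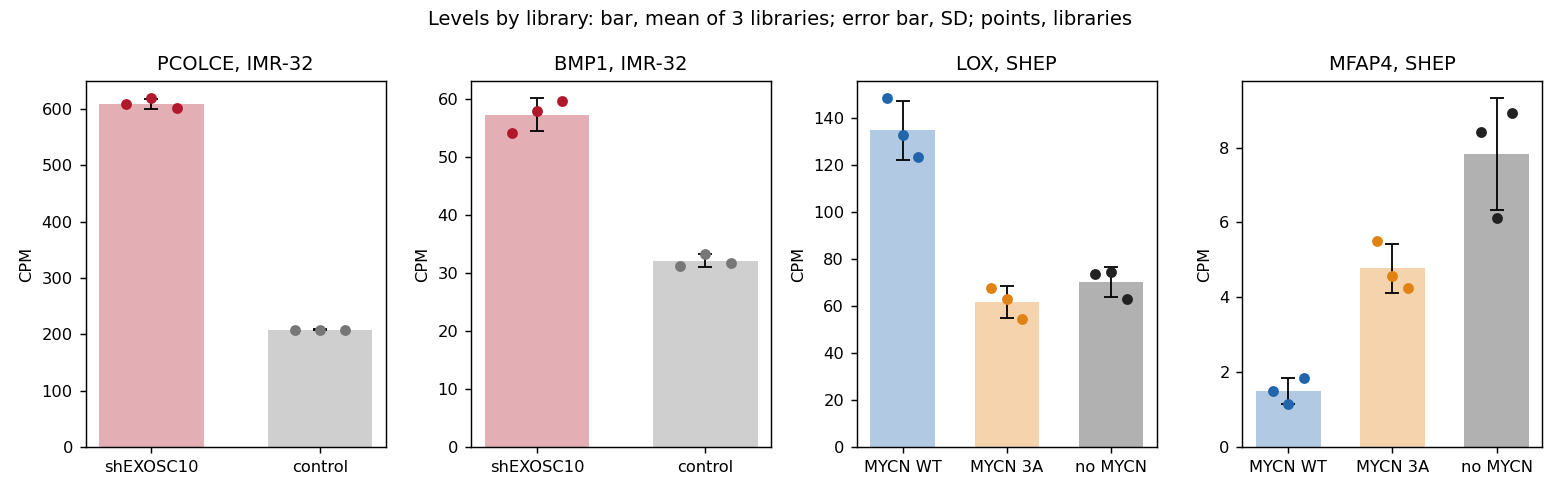
CPM by library (points) with the group mean (bar, from 0) and SD (error bar) of PCOLCE and BMP1 in IMR-32 and of LOX and MFAP4 in SHEP. PCOLCE libraries with shEXOSC10 lie at 601 to 619 CPM, above the controls, and LOX libraries with MYCN WT lie at 123 to 148 CPM, above both other SHEP groups.

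Fibrillar collagen genes, the substrates, were lower in 5 and higher in 1 of 8 tested cases with MYCN WT (median -0.81), where 22.2% of all genes were called. COL1A1 had 434 ± 56.7 CPM in MYCN WT and 1518 ± 79.3 CPM in no MYCN libraries (log2 fold change -1.81), and COL5A1 68.1 ± 16.5 and 228 ± 12.6 CPM in the same order (-1.75). Elastic fibre and matrix glycoproteins were lower in 13 and higher in 1 of 24 (median -0.49), led by TGFBI, a collagen-binding adhesion protein, at 276 ± 19.7 CPM in MYCN WT and 829 ± 37.6 CPM in no MYCN libraries (log2 fold change -1.59). The 1 higher gene was LTBP4 (0.78). Other endoplasmic reticulum enzymes were mixed, higher in 2 and lower in 3 of 19 (median 0.02). P4HA2 fell by 1.07 on the log2 scale, and the collagen galactosyltransferase COLGALT1 rose by 0.42.

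Hypoxia-inducible genes were higher in 5 and lower in 2 of 16 (median 0.21): ADM, encoding adrenomedullin, rose by 1.08 and VEGFA by 0.86, whereas NDRG1 fell by 1.24 on the log2 scale. Among other propeptide and crosslinking enzymes 0 were higher and 1 lower of 5 (median 0.10), and of 3 small leucine-rich proteoglycans edgeR called 0, with 0 at an unadjusted p under 0.05 (median 0.09). Metalloproteinases and inhibitors were higher in 1 and lower in 4 of 12 (median -0.20), with MMP2 falling by 0.81 and MMP14 rising by 0.26 on the log2 scale. Heat shock factor targets were higher in 3 and lower in 3 of 9 (median 0.12). Summed mesenchymal markers were 6732 to 7040 CPM in MYCN WT libraries, against 5193 to 5439 CPM in no MYCN libraries, with VIM the highest, and their part in these results was not tested.

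In the libraries labelled MYCN 3A, the same no MYCN libraries served as the control, and 7 of the 10 genes were lower and 1 higher. FBN1, for fibrillin-1, fell 2.03-fold, FN1, for fibronectin, 1.99-fold, LOXL2 1.75-fold and MFAP4 1.64-fold, an order that did not hold once the trend of expression with exon length was removed. PCOLCE was the gene that rose, 1.32-fold. In edgeR's test 25.5% of all genes were called (12.7% higher, 12.8% lower) and 1.52% with a change of at least 2-fold, as was 1 of the 10 genes. Ranges did not overlap for 8 of the 10 against 41.3% of all genes, and the median log2 fold change was -0.47, against -0.04 over all genes. Scaled by library totals, 1237 genes were higher and 2925 lower, against 1893 and 1913 as fitted, with the median of all genes at -0.14.

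FBN1 had 69.2, 62.9 and 54.2 CPM in MYCN 3A libraries, against 150, 123 and 105 CPM in no MYCN libraries. No library of the first group reached the second (log2 fold change -1.02, SE 0.21, edgeR adjusted p = 0.00452). FN1 had 289, 276 and 254 CPM in MYCN 3A libraries, against 607, 543 and 481 CPM in no MYCN libraries. It separated as cleanly, with a log2 fold change of -0.99 (SE 0.12, edgeR adjusted p = 9.5e-06). LOXL2 had 71.2, 65.6 and 64.0 CPM in MYCN 3A libraries, against 124, 115 and 112 CPM in no MYCN libraries, again without overlap (log2 fold change -0.80, SE 0.10, edgeR adjusted p = 8.05e-06).

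SPARC had 1180, 1051 and 1115 CPM in MYCN 3A libraries, against 1525, 1616 and 1498 CPM in no MYCN libraries. It was lower in each of them (log2 fold change -0.47, SE 0.08, edgeR adjusted p = 3.41e-04). BMP1 had 58.6, 51.2 and 57.2 CPM in MYCN 3A libraries, against 67.2, 84.5 and 78.3 CPM in no MYCN libraries, and was lower throughout (log2 fold change -0.46, SE 0.11, edgeR adjusted p = 0.00419). PCOLCE had 167, 160 and 183 CPM in MYCN 3A libraries, against 119, 141 and 126 CPM in no MYCN libraries. All 3 values are above the controls (log2 fold change 0.40, SE 0.09, edgeR adjusted p = 0.00212).

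MFAP4 had 5.51, 4.56 and 4.25 CPM in MYCN 3A libraries, from 52 to 74 counts, against 8.42, 6.11 and 8.92 CPM in no MYCN libraries. The ranges come close, and the log2 fold change of -0.71 (SE 0.23, edgeR adjusted p = 0.0286) was not called in DESeq2 (0.0521) or without no MYCN replicate 1 or 3 or MYCN 3A replicate 2 or 3 (0.083 to 0.115). SERPINH1 had 254, 251 and 268 CPM in MYCN 3A libraries, against 309, 302 and 306 CPM in no MYCN libraries. The groups do not overlap, but the small fall of 0.25 on the log2 scale (SE 0.08, edgeR adjusted p = 0.0199) lost its call without any no MYCN replicate or without MYCN 3A replicate 2 (0.056 to 0.0825). LOX changed by -0.19 (95% interval -0.39 to 0.01) and P4HA1 by 0.01 (-0.17 to 0.18) with overlapping groups.

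Gene length moved with this comparison. The 955 genes with at least 10000 exon bases had a median log2 fold change of -0.26, and the 1177 genes under 2000 bases one of 0.28. FBN1 and FN1 belong to the long genes. With each library's trend of expression with exon length removed, a setting chosen after the data were seen, FBN1 fell by 0.72 (edgeR adjusted p = 4.37e-05) and FN1 by 0.68 (edgeR adjusted p = 1.64e-06) on the log2 scale, so both remained called at a smaller size, while MFAP4 stood at -0.84 and LOXL2 at -0.71. SERPINH1 was no longer called (-0.19, edgeR adjusted p = 0.0627). EXOSC10 itself was lower with MYCN 3A, at 61.4 ± 4.02 CPM, against 81.0 ± 10.5 CPM with no MYCN (log2 fold change -0.40, SE 0.11), and its part was not tested.

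**Figure D5:**
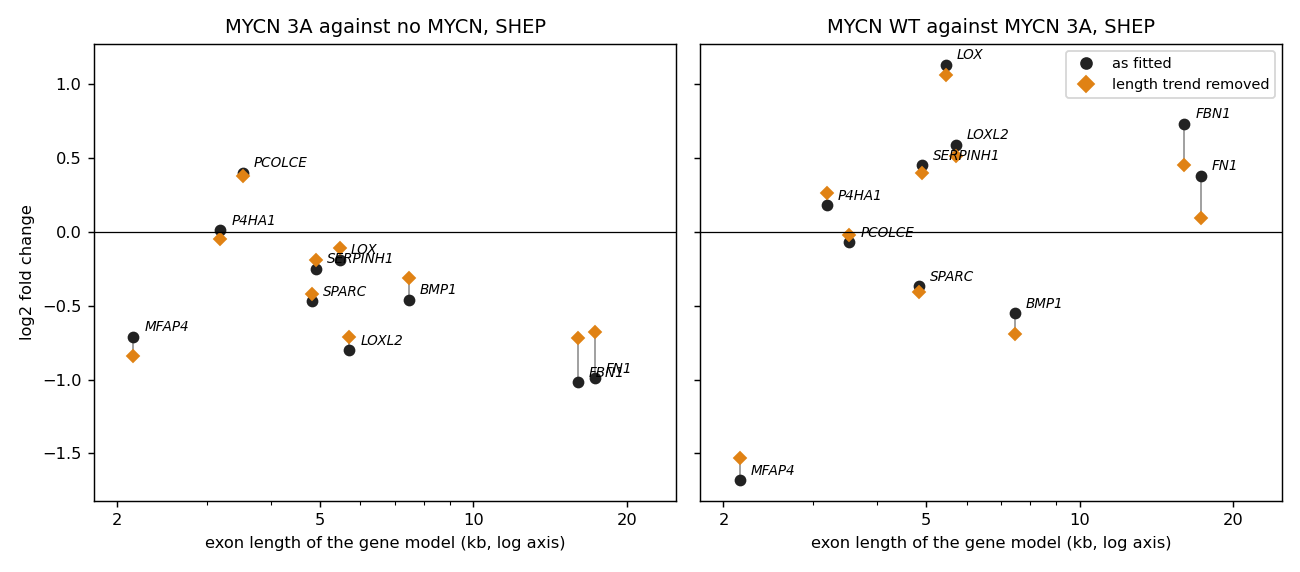
Log2 fold change of each gene against the exon length of its model (kilobases, log axis), as fitted (black circles) and with the length trend removed (orange diamonds), for MYCN 3A against no MYCN and MYCN WT against MYCN 3A. The longest models, FBN1 and FN1, move most: FN1 goes to -0.68 in the first panel and to 0.09 in the second.

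Around the 10 genes, 5 of 8 fibrillar collagens were lower and 0 higher with MYCN 3A (median -0.80), where 25.5% of all genes were called, with COL1A1 at 819 ± 72.1 CPM in MYCN 3A and 1518 ± 79.3 CPM in no MYCN libraries (log2 fold change -0.89) and COL5A1 at 98.5 ± 7.45 and 228 ± 12.6 CPM in the same order (-1.21). Elastic fibre and matrix glycoproteins were lower in 15 and higher in 0 of 24 (median -0.49), among them thrombospondin THBS1 (-1.05) and TGFBI (-0.79). Of 5 other propeptide and crosslinking enzymes 1 was higher, PCOLCE2 (0.52), and 2 lower, with LOXL1 falling by 0.53 on the log2 scale (median of the list -0.51). Endoplasmic reticulum enzymes were higher in 1 and lower in 4 of 19 (median -0.07). The prolyl isomerase PPIB rose by 0.42, and the lysyl hydroxylase PLOD2 fell by 0.54. Of 3 small leucine-rich proteoglycans 1 fell, BGN (-0.96, list median -0.21). Metalloproteinases and inhibitors were higher in 1 and lower in 4 of 12 (median -0.26), hypoxia-inducible genes higher in 0 and lower in 1 of 16 (median -0.02), and heat shock factor targets higher in 3 and lower in 1 of 9 (median 0.18).

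The MYCN forms were then set directly against each other. The libraries labelled MYCN WT had more LOX (2.19-fold), FBN1 (1.66-fold), LOXL2 (1.51-fold), SERPINH1 (1.36-fold) and FN1 (1.30-fold) than those labelled MYCN 3A. MFAP4 (3.20-fold), BMP1 (1.46-fold) and SPARC (1.29-fold) were lower in MYCN WT. Of the 10 genes, 5 were called higher and 3 lower, against 30.3% of all genes in edgeR's test (15.8% higher, 14.5% lower), and 2 of the 10 reached 2-fold, against 4.26%. Ranges did not overlap for 8 of the 10, against 40.4% of all genes, with a median log2 fold change of 0.28, against 0.00 over all genes.

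LOX stood at 148, 133 and 123 CPM in MYCN WT libraries, against 67.6, 62.8 and 54.3 CPM in MYCN 3A libraries. The separation is complete, with a log2 fold change of 1.13 (SE 0.10, edgeR adjusted p = 4.46e-08). LOXL2 stood at 113, 100.5 and 88.7 CPM in MYCN WT libraries, against 71.2, 65.6 and 64.0 CPM in MYCN 3A libraries. Both crosslinking enzymes were therefore higher with the wild type form (LOXL2 log2 fold change 0.59, SE 0.10, edgeR adjusted p = 9.16e-05). SERPINH1 stood at 336, 359 and 358 CPM in MYCN WT libraries, against 254, 251 and 268 CPM in MYCN 3A libraries. Against no MYCN libraries its mean lies above with MYCN WT and below with MYCN 3A, and between the forms it differed by 0.45 (SE 0.08, edgeR adjusted p = 1.35e-04).

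BMP1 stood at 43.1, 37.3 and 33.8 CPM in MYCN WT libraries, against 58.6, 51.2 and 57.2 CPM in MYCN 3A libraries (log2 fold change -0.55, SE 0.11, edgeR adjusted p = 8.88e-04). SPARC stood at 927, 851 and 808 CPM in MYCN WT libraries, against 1180, 1051 and 1115 CPM in MYCN 3A libraries (log2 fold change -0.37, SE 0.08, edgeR adjusted p = 0.00166). For both genes the MYCN WT libraries are all below the MYCN 3A libraries, which are all below those with no MYCN. MFAP4 followed the same order, with 1.49, 1.14 and 1.83 CPM in MYCN WT libraries, against 5.51, 4.56 and 4.25 CPM in MYCN 3A libraries (log2 fold change -1.68, SE 0.27, edgeR adjusted p = 9.27e-05).

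FBN1 stood at 140, 92.7 and 76.2 CPM in MYCN WT libraries, against 69.2, 62.9 and 54.2 CPM in MYCN 3A libraries (log2 fold change 0.73, SE 0.21, edgeR adjusted p = 0.0202). The separation is narrow and MYCN WT replicate 1 lies far above its group. Without that library the difference was 0.44 (edgeR adjusted p = 0.0128). The call was lost without MYCN 3A replicate 3 (0.64, edgeR adjusted p = 0.102), and with the length trend removed the difference was 0.45 (edgeR adjusted p = 0.00311). FN1 stood at 449, 332 and 282 CPM in MYCN WT libraries, against 289, 276 and 254 CPM in MYCN 3A libraries. These groups overlap, and the difference of 0.38 (SE 0.12, edgeR adjusted p = 0.0207) fell to 0.17 without MYCN WT replicate 1 (0.199) and to 0.09 with the length trend removed (0.395). It was not called in DESeq2 (0.122), with library totals (0.0653), or without MYCN 3A replicate 2 (0.0563) or 3 (0.119). Long genes as a class stood at a median of 0.24 and short ones at -0.22 in this comparison. PCOLCE differed by -0.07 (95% interval -0.24 to 0.11) with overlap, and P4HA1 by 0.18 (0.00 to 0.35) without overlap. P4HA1 was called with the length trend removed (0.26, edgeR adjusted p = 0.0212).

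Other matrix lists were counted between the forms too, where 30.3% of all genes were called. Hypoxia-inducible genes were higher in 7 and lower in 1 of 16 with MYCN WT (median 0.35), with ADM at 46.9 ± 4.70 CPM in MYCN WT and 24.2 ± 1.95 CPM in MYCN 3A libraries (log2 fold change 0.96). Endoplasmic reticulum enzymes were higher in 6 and lower in 2 of 19 (median -0.02). PLOD2 was higher (0.72) and P4HA2 lower (-0.66) with MYCN WT. Elastic fibre and matrix glycoproteins split into 7 higher and 8 lower of 24 (median 0.00), with fibrillin-2, FBN2, higher (1.26) and TGFBI lower (-0.80). Fibrillar collagens were higher in 1 and lower in 3 of 8 (median -0.24). COL1A1 was at 434 ± 56.7 CPM in MYCN WT and 819 ± 72.1 CPM in MYCN 3A libraries (log2 fold change -0.92). Other propeptide and crosslinking enzymes were higher in 3 and lower in 1 of 5 (median 0.64), small leucine-rich proteoglycans higher in 1 and lower in 0 of 3 (median 0.45), metalloproteinases and inhibitors higher in 1 and lower in 2 of 12 (median 0.08), and heat shock factor targets higher in 1 and lower in 4 of 9 (median -0.09).

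Over the 9 SHEP libraries, the gene whose log2 CPM followed each of 9 members most closely was sought among 10004 or 10005 genes, as a description in which the libraries share their groups. BMP1 followed SPARC (Pearson r = 0.979), and SPARC in turn followed TGFBI (0.993). LOX followed DDAH1 (0.997), FBN1 the laminin chain LAMC1 (0.993) and FN1 the lysosomal receptor SCARB2 (0.986). MFAP4 followed GSN, encoding gelsolin (0.989), SERPINH1 the splicing factor SRSF4 (0.976), PCOLCE PCGF1 (0.973) and P4HA1 the kinase GRK5 (0.936). Within the 10 genes, LOXL2 and FBN1 were nearest to each other (0.958), while PCOLCE had no close partner (at most 0.271, with P4HA1).

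The IMR-32 and SHEP libraries without doxycycline were compared last. Labels of the IMR-32 libraries name the solvent ethanol, and those of the SHEP libraries name no solvent. MFAP4 was 40.9-fold higher in IMR-32, and PCOLCE (1.46-fold) and SERPINH1 (1.11-fold) were also higher there. The other 7 genes were lower in IMR-32, led by FBN1 (16.8-fold), LOXL2 (8.99-fold) and FN1 (3.70-fold). In edgeR's test 87.9% of all 17657 genes were called between the lines (46.5% higher, 41.4% lower) and 88.6% did not overlap, and 6 of the 10 reached 2-fold against 64.8%, so the count of 10 called genes, 9 of them without overlap, is near the background. The median log2 fold change of the 10 genes was -1.17, against 0.15 over all genes. Line, solvent label, count table and experiment cannot be told apart here.

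On the log2 scale, FBN1 differed by -4.06 (SE 0.12), LOXL2 by -3.16 (SE 0.10), FN1 by -1.88 (SE 0.08) and SPARC by -1.69 (SE 0.05), and MFAP4 by 5.35 (SE 0.10). BMP1 differed by -1.39 (SE 0.09), P4HA1 by -0.95 (SE 0.08) and PCOLCE by 0.56 (SE 0.07). Every one of these 8 separates the lines without overlap. The remaining pair was less firm. LOX (-0.23, edgeR adjusted p = 0.0124) overlapped between the lines and was not called with library totals (0.073) or without control or no MYCN replicate 2 (0.0501 and 0.0502). SERPINH1 (0.16, edgeR adjusted p = 0.00965) was not called without no MYCN replicate 2 (0.0641), and with the length trend removed it turned to -0.16 (edgeR adjusted p = 0.00542). Long genes stood at a median of 0.93 and short ones at -1.21 between the lines, and with that trend removed FN1 stood at -3.25 and LOX at -0.63.

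Matrix lists also set the lines apart, each against 87.9% of genes called. CPM in this paragraph are scaled over all 15 libraries, as the RPKM were, and so differ from the CPM given above. Fibrillar collagens were higher in IMR-32 in 3 and lower in 6 of 9 (median -3.07), with COL1A1 at 187 ± 13.3 CPM in IMR-32 and 1579 ± 81.0 CPM in SHEP and COL5A2 at 1.61 ± 0.447 and 446 ± 19.9 CPM in the same order. Elastic fibre and matrix glycoproteins divided into 14 higher and 15 lower of 29 (median -0.33): THBS3 had 790 ± 27.9 CPM in IMR-32 and 9.72 ± 0.656 CPM in SHEP. In the other direction, TGFBI had 0.0149 ± 0.0259 CPM in IMR-32 and 863 ± 38.5 CPM in SHEP, and THBS1 0.0299 ± 0.0517 and 994 ± 90.1 CPM in the same order. Endoplasmic reticulum enzymes were higher in 7 and lower in 8 of 19 (median -0.17), other propeptide and crosslinking enzymes higher in 5 and lower in 2 of 8 (median 2.82) and small leucine-rich proteoglycans lower in 3 of 3 (median -3.97). Metalloproteinases and inhibitors were higher in 6 and lower in 6 of 12 (median -0.78), hypoxia-inducible genes higher in 6 and lower in 7 of 15 (median -0.21), and heat shock factor targets higher in 1 and lower in 8 of 9 (median -1.90).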

How the data were processed

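Polyadenylated RNA was sequenced in 15 libraries, 3 for each of 5 groups, and the other 74 samples of the series were not analysed here. The deposited values are raw counts per gene. Per the submitters' processing notes, STAR 2.7.10a and featureCounts 2.0.3 were used with hg19. Per the file headers, the authors counted SHEP reads by strand (setting 2) with Ensembl 87 models, a minimum overlap of 10 bases and reads of overlapping genes given to each. For IMR-32 these settings are not given in the sources used here. The columns of that table name doxycycline or solvent and a replicate number, and were joined to samples by these. Even numbers made up 65.5 to 77.1% of counts from 1 to 10.

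Genes were filtered with filterByExpr, scaled with TMM and tested with edgeR 4.0.16 (robust quasi-likelihood, R 4.3.3) with Benjamini-Hochberg adjustment at 0.05 over all tested genes. All 9 SHEP libraries shared a fit, and the lines were compared on the joined tables. The 95% intervals apply a normal quantile to the SE, so they are narrower than intervals from edgeR's test would be. Symbols matched 51996 of 57905 genes. The 10 genes and the gene lists were chosen with earlier results of these data known. The rule for named genes takes all 10 genes, EXOSC10 and MYCN, up to 2 called genes a direction, comparison and list with mean log2 CPM of at least 3 and the smallest p, and for each of the 10 the gene nearest in SHEP. The gene nearest to LOXL2 is not reported here. Alternatives were DESeq2 1.42.0, library totals, median-of-ratios factors, no filter, a replicate block, removal of the length trend, only the groups compared (SHEP) and leaving out each library.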

Additional observations from a re-analysis of the deposited data

Results flagged for a closer look

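For 8 of the 10 genes, the effects of MYCN WT and MYCN 3A, each against the same no MYCN libraries, differed in the direct test between the forms (Benjamini-Hochberg adjusted p of edgeR's quasi-likelihood fit). The same test called 30.3% of all genes (15.8% higher, 14.5% lower). On the log2 scale, with MYCN WT over MYCN 3A, LOX differed by 1.13, FBN1 by 0.73, LOXL2 by 0.59, SERPINH1 by 0.45 and FN1 by 0.38, and BMP1 by -0.55, SPARC by -0.37 and MFAP4 by -1.68. The FN1 value rests on MYCN WT replicate 1 (0.17 without it) and stood at 0.09 with the length trend removed, and that of FBN1 was 0.44 without the same library and 0.45 with the trend removed. The adjusted p of the other 7 stayed under 0.05 in every alternative except that of FBN1 without MYCN 3A replicate 3 (0.102).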

How the results depend on the processing

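Over the alternatives, 630 log2 fold changes of the 10 genes were recomputed: 578 kept their direction and side of the threshold, 29 lost and 10 gained a call, and 13 changed sign. The cause was not tested. With shEXOSC10, leaving out a library gave -0.02 to 0.03 for SERPINH1, -0.09 to 0.05 for P4HA1 and -0.10 to 0.01 for LOX, and P4HA1 was 0.00 with the length trend removed. P4HA1 with MYCN 3A was -0.09 with library totals, -0.05 with the length trend removed and -0.04 to 0.06 without a library. SERPINH1 between the lines was -0.16 with the length trend removed. Library totals gave 1237 genes higher and 2925 lower with MYCN 3A. Leaving out a library gave 1127 to 1744 genes higher and 1064 to 1714 lower with MYCN WT. Of the 10 genes, 1 to 3 were higher and 4 to 6 lower there. With MYCN 3A it gave 1144 to 1821 genes higher and 1022 to 1796 lower. There 1 of the 10 was higher and 5 to 7 were lower. Between the forms it gave 1674 to 2572 genes higher and 1587 to 2329 lower. There 3 to 5 of the 10 were higher and 3 were lower.

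Libraries of different groups with the same replicate number had residuals that correlated at 0.03 to 0.04 in IMR-32 and -0.03 to 0.14 in SHEP. Those with different numbers correlated at -0.13 to 0.06 across SHEP groups. FN1, FBN1 and LOXL2 fell with rising replicate number in every SHEP group. The labels state no pairing and these correlations are low, so the numbers were not taken as pairs. With a replicate block, 2135 genes were higher and 2049 lower with MYCN WT, against 1634 and 1681 as fitted. SERPINH1 (0.20, edgeR adjusted p = 0.0159), LOXL2 (-0.22, 0.0271) and FBN1 (-0.31, 0.0072) were called there with the block and not as fitted. No other of the 10 genes changed its call under the block in any comparison. Depth limits MFAP4 in SHEP, which had 16 to 136 counts a library.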
